A study of Mus musculus with 12 samples.

Results

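Kidney RNA of mice labelled Lrrk2 knockout was compared with that of wild type mice after ischemia and reperfusion (I/R), across all genes of a table of 16383 genes. All samples labelled I/R entered, which are 3 of each genotype and 6 of the 12 samples of the study; the other 6 are sham kidneys of the same genotypes. Per the labels, the left kidney was made ischemic for 30 min at 37 °C through a flank incision and the opposite kidney was removed, and sham animals had that surgery with no ischemia. Both I/R groups therefore lost 1 kidney, and no animal with both kidneys enters. The groups are written WT I/R and KO I/R after their labels. The genotype is given as Lrrk2-/-. The sources used here do not give how the allele was made, the strain, sex and age of the mice or the time of reperfusion. Nothing in them says that the 3 samples of a group came from separate animals, so p-values measure the spread between these samples, which may be technical.

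LRRK2 is a large protein with a kinase and a GTPase domain. It phosphorylates a set of Rab GTPases that direct membrane traffic to and from lysosomes, and variants that raise its kinase activity cause Parkinson disease. The kidney is among the organs with most LRRK2, and rodents without it gather pigment and enlarged lysosomes in the proximal tubule. I/R injures that segment first. Surviving tubule cells then lose transporters and make injury proteins such as KIM-1 and NGAL, fibrinogen chains are made in the kidney itself, and pericytes and fibroblasts lay down collagen during repair.

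The 6 I/R libraries held between 4713434 and 5456261 counts over the table, and between 6429 and 6891 genes with a count. Values below are CPM, counts scaled to library size with factors from the trimmed mean of M values (TMM), and differences are log2 of KO I/R over WT I/R with their standard error (SE). The library KO I/R 2 stands apart because its deposited count and FPKM (fragments per kilobase, scaled to library size) columns disagree. A count of 0 stood beside a positive FPKM in 936 genes, and the reverse in 533, against 0 genes in each of the other 11 libraries. The main results are therefore also given without KO I/R 2, with reads for it worked back from its FPKM column, or both. Pearson's r of log2 CPM across the tested genes, which are not independent replicates, averaged 0.941 within KO I/R, 0.972 within WT I/R and 0.958 between them. With the reads from the FPKM column the average within KO I/R was 0.970 and that between the genotypes 0.968, so the libraries were about as alike between genotypes as within them. Kidney identity was plain, with Umod, the uromodulin of the thick ascending limb, at 5414 to 8617 CPM in the 6 libraries.

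The targeted gene did not separate the labels. Lrrk2 was at 58.3, 69.7 and 80.8 CPM in WT I/R 1 to 3 and at 74.2, 56.5 and 146 CPM in KO I/R 1 to 3. The groups overlapped, with a log2 difference of 0.41 (SE 0.54), and without KO I/R 3 it was -0.09. In sham kidneys Lrrk2 was at 433, 257 and 362 CPM in WT sham 1 to 3 and at 96.5, 319 and 55.5 in KO sham 1 to 3. KO sham 2 was thus within the WT sham range, and all WT I/R libraries were below all WT sham ones. The sources used here do not say which part of the gene the knockout removes, a count over the whole gene may miss it, and KO I/R carries its label only.

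No gene passed the test in this comparison. edgeR's quasi-likelihood test, fitted on the 4 groups of the study with Benjamini-Hochberg adjustment over 5048 genes, called 0 genes (0%) at an adjusted p under 0.05, and the adjusted p was 1 for every gene. At an unadjusted p under 0.05, 69 genes (1.37%) were higher and 71 (1.41%) lower in KO I/R. In 229 genes (4.54%) every KO I/R library was above every WT I/R library, and in 247 (4.89%) every one was below. Without KO I/R 2 these counts were 923 and 858, and with its reads from the FPKM column 406 and 419. With fewer libraries groups come apart more easily, so the counts without KO I/R 2 cannot be compared directly with the others. The SE, interval and p of that fit rest on the spread within all 4 groups, so they also carry the spread of the sham libraries. The 95% interval reached a median of 0.83 on the log2 scale to either side, and for 2266 genes (44.9%) the whole interval lay within a log2 difference of 1 either way. For the other genes the interval reached past that size on at least 1 side, and a p that misses the threshold does not show that values were equal. What follows gives values, and none of the differences is called in that fit.

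The same test on only the 6 I/R libraries, with KO I/R 2 read from its FPKM column, called 3 of 4716 genes (0.0636%), which were Fgb, Fgg and Sesn3. With the deposited counts those 6 libraries gave 0 calls, and without KO I/R 2 the remaining 5 gave 4, namely Fgb, Sesn3, Rreb1 and Tgfbrap1. The fit with the FPKM column and that of 5 libraries were both chosen after the data were seen. DESeq2 on all 12 libraries called Rreb1 and Kcnj16. Those genes are described first.

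The fibrinogen chains Fgb and Fgg encode subunits of the same clotting protein, and both were higher in every KO I/R library than in any WT I/R library. Fibrinogen is a hexamer of paired alpha, beta and gamma chains that thrombin turns into fibrin, and Fgb and Fgg encode the beta and gamma chains. In the coordinates of the table, which follow GRCm38, Fgg lies at chr3:83007724-83015049 and Fgb at chr3:83040141-83049863, with 25091 bases between them. No value is given here for the alpha chain gene, which is not among the tested genes of the complement and coagulation list. Since Fgb and Fgg are neighbours and were read by the same libraries, they do not count as separate evidence. Their promoters from RefSeq (GRCm38.p6, 250 bases before to 50 after the start, written along the gene's strand) are shown because the pair moved together. Fgb is at chr3:83049814-83050113 on the minus strand and Fgg at chr3:83007474-83007773 on the plus strand. Capitals mark matches on either strand to 3 motifs: CTGGGAA, the interleukin 6 response element described in fibrinogen genes, TTCNNNGAA, the palindrome of STAT factors, and GTTAAT, a half-site of HNF1.

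Fgb: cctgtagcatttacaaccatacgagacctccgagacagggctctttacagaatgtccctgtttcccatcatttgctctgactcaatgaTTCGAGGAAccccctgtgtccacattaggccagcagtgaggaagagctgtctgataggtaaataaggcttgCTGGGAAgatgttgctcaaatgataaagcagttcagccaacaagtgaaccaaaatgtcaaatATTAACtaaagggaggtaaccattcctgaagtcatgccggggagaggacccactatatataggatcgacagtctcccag

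Fgg: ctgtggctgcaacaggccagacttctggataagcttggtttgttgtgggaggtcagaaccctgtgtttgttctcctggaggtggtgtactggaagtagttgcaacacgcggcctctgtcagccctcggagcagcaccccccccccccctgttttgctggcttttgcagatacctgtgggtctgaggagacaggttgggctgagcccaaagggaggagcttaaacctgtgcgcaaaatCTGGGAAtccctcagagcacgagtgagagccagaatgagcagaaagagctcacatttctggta

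CTGGGAA stands at bases 160 to 166 of the Fgb promoter and 238 to 244 of the Fgg promoter, and 11.1% of the 32851 promoters of that length in the table hold it. TTCNNNGAA, held by 8.3% of promoters, is at bases 89 to 97 of Fgb. GTTAAT, held by 7.1%, is at bases 222 to 227 of Fgb on the opposite strand. The matches share no base with each other, and they describe letters in these windows and not binding.

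Fgb was at 188, 151 and 171 CPM in WT I/R 1 to 3 and at 691, 1116 and 913 CPM in KO I/R 1 to 3. Its log2 difference was 2.42 (SE 0.84, unadjusted p = 0.0141 by edgeR's quasi-likelihood test), a fitted 5.34-fold. The FPKM column put KO I/R 2 at 679.9 CPM, which gave 2.16, and leaving the library out gave 2.24. In the 6 libraries alone edgeR's adjusted p was 0.00591 with the FPKM column, 0.0241 without KO I/R 2 and 0.0667 with the deposited counts. Sham kidneys had 0.79 to 7.59 CPM in WT sham and 0.80 to 19.7 CPM in KO sham, so that both genotypes after I/R were far above both sham groups.

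Fgg was at 873, 836 and 855 CPM in WT I/R and at 2309, 4754 and 3539 CPM in KO I/R. The WT I/R libraries lay close together, and every KO I/R library was far above them. The log2 difference was 2.05 (SE 0.84, unadjusted p = 0.0304 by edgeR), or 1.80 with KO I/R 2 from its FPKM column at 3105 CPM and 1.77 without it. edgeR's adjusted p in the 6 libraries with the FPKM column was 0.0134. Per length, FPKM was 115 to 122 in WT I/R and 315 to 497 in KO I/R for Fgg, and 13.01 to 16.4 against 54.6 to 80.2 for Fgb, so the gamma chain had the higher level of the pair in both genotypes.

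The other tested genes of the complement and coagulation list were less clear. The list has 6 tested members, of which 3 were higher at an unadjusted p under 0.05, beside 1.37% of all tested genes, and 0 lower. Those 3 include the Fgb and Fgg described above. The median log2 difference was 1.48, against 0.05 over all genes. Without KO I/R 2 the median was 0.82 and with its FPKM column 0.65. Serpina1f, a member of the serpin family, was the third, at 9.48, 15.5 and 18.3 CPM in WT I/R against 13.5, 164 and 54.3 in KO I/R. Its groups overlapped, and 2.41 became 0.86 with KO I/R 2 from its FPKM column, where it was at 11.2 CPM. Proc, which encodes the anticoagulant protein C, differed by 0.91 (0.43 with the FPKM column). F3, the tissue factor that starts the extrinsic pathway, differed by -0.20 (SE 0.35) and by 0.01 with the FPKM column. Serping1, the C1 inhibitor, differed by -0.51 and, without KO I/R 2, by -1.18.

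Rreb1 had the smallest unadjusted p of the genes named by the selection rule. It encodes a zinc finger factor that binds Ras-responsive elements. Rreb1 was at 13.7, 15.7 and 20.4 CPM in WT I/R and 75.3, 47.2 and 90.3 in KO I/R, with 31.2 for KO I/R 2 from its FPKM column. All KO I/R libraries were above all WT I/R ones in either version. The log2 difference was 2.09 (SE 0.43, unadjusted p = 0.000405 by edgeR), 2.32 without KO I/R 2 and 1.98 with the FPKM column. DESeq2 gave it an adjusted p of 0.00589. Rreb1 in sham kidneys was at 26.6 to 102 CPM in WT sham and 63.3 to 97.9 in KO sham, so the WT I/R libraries were the low ones and all KO I/R libraries lay within the sham range.

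Kcnj16 and Sesn3 rest on particular libraries. Kcnj16, a potassium channel subunit (Kir5.1) of the distal nephron and proximal tubule, was at 37.9, 27.4 and 41.5 CPM in WT I/R. KO I/R 1 and 2 had 599.9 and 649 CPM, whereas KO I/R 3 had 48.7, just above the WT I/R libraries. The log2 difference was 3.60 (SE 0.86), 3.19 without KO I/R 2 and 3.59 with the FPKM column, and DESeq2's adjusted p 0.00459, while edgeR's adjusted p was 1 as for all genes. Sesn3, a stress-induced sestrin that restrains mTORC1, was at 106, 84.1 and 65.7 CPM in WT I/R and at 12.4, 59.2 and 15.5 in KO I/R. The FPKM column put KO I/R 2 at 13.8 CPM, beside the other KO I/R libraries. The log2 difference was -1.56 (SE 0.80) with the deposited counts, -2.61 without KO I/R 2 and -2.62 with the FPKM column, where edgeR's adjusted p in the 6 libraries was 0.00768. Sesn3 in sham kidneys ran from 10.3 to 91.1 CPM, a span close to that of the I/R libraries. Tgfbrap1, a subunit of an endosomal tethering complex, was at 147, 153 and 147 CPM in WT I/R and at 45.9, 123 and 53.5 in KO I/R, but at 150.2 in KO I/R 2 by its FPKM column, the WT I/R level. Its log2 difference was -1.01 (SE 0.79) and, without KO I/R 2, -1.58.

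**Figure D1:**
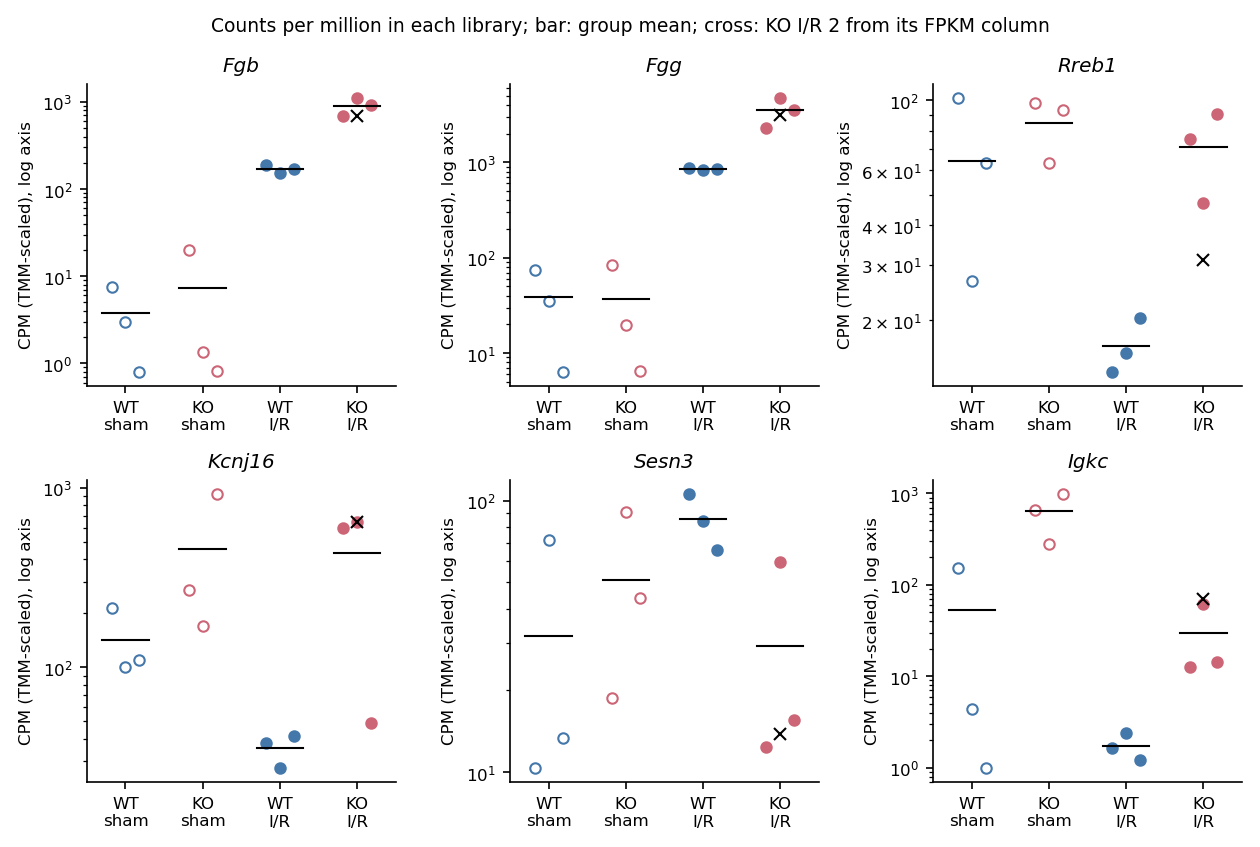
TMM-scaled CPM (log axis) of Fgb, Fgg, Rreb1, Kcnj16, Sesn3 and Igkc in the 12 libraries, by group, with sham as open and I/R as filled circles, bars at group means and a cross for KO I/R 2 as read from its FPKM column. Fgb and Fgg are at 151 to 188 and 836 to 873 CPM in WT I/R and above that in all KO I/R libraries in either version of KO I/R 2, whereas KO I/R 3 of Kcnj16 and KO I/R 2 of Sesn3 lie away from their group.

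Further genes named by the selection rule were higher in all KO I/R libraries with the deposited counts. Scd1, the stearoyl-CoA desaturase, was at 5.83, 12.6 and 13.8 CPM in WT I/R and 23.0, 64.7 and 99.7 in KO I/R, but the FPKM column put KO I/R 2 at 13.8, so the groups then touched. Acaa1b, a thiolase of peroxisomal fatty acid oxidation, was at 2439, 2629 and 3411 CPM in WT I/R and 3802, 5877 and 5230.3 in KO I/R, and stayed apart with 4358 for KO I/R 2. Its log2 difference was 0.81 (SE 0.30), or 0.65 with the FPKM column and 0.67 without KO I/R 2. Derl3 and Creld2, which act in the endoplasmic reticulum, differed by 2.26 (SE 0.71) and 0.74 (SE 0.27), with Derl3 at only 0.55 to 2.19 CPM in WT I/R and 5.92 to 7.20 in KO I/R. Creld2 had 0.55 without KO I/R 2 and 0.47 with the FPKM column, and Derl3 2.23 and 2.10. Napsa, the aspartic protease napsin A of the proximal tubule, was at 820.3, 1781 and 1639 CPM in WT I/R and 1818, 7863 and 2629 in KO I/R. Its 1.54 became 0.67 with the FPKM column and 0.65 without KO I/R 2, so most of the size came from the deposited counts of that library. Pxn, the focal adhesion protein paxillin, Sntg2, a syntrophin, and Susd4, a complement regulator, lost their separation with the FPKM column, with log2 differences going from 1.17 to 0.61, from 1.44 to 1.02 and from 1.52 to 1.05. Fndc4, Plekhb1 and Lrrc75b kept theirs, at 1.12, 1.05 and 1.78 with the deposited counts and 0.81, 0.65 and 1.82 with the FPKM column.

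Genes of the extracellular matrix and of the fibroblasts and pericytes that make it were lower in KO I/R, without passing the test. The fibroblast and matrix list has 8 tested members of 10 in the table. At an unadjusted p under 0.05, 4 were lower, beside 1.41% of all tested genes, and 0 higher. In every KO I/R library 4 were lower, beside 4.89% of all tested genes, with Col1a1, Col5a1 and Pdgfrb among both. The median log2 difference was -0.75, and -0.67 without KO I/R 2 and -0.66 with the FPKM column, against 0.05, -0.01 and 0.00 over all genes. Of the 10 tested collagen genes, a family looked at after the values were seen, all 10 had a negative difference with the deposited counts, 9 with the FPKM column and 8 without KO I/R 2, with medians of -0.73, -0.68 and -0.94. Over all 5048 tested genes the negative differences were 2199, 2481 and 2565 in that order. The collagens overlap the list. In whole kidney RNA, fewer cells of a type and less RNA per cell cannot be told apart.

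Col1a1, the main chain of fibrillar collagen I, was at 305, 378 and 245 CPM in WT I/R and 90.5, 229 and 142 in KO I/R, with 116 for KO I/R 2 from its FPKM column. The highest KO I/R library was just below the lowest WT I/R library, and the gap was wider in the FPKM version. Its log2 difference was -1.01 (SE 0.35, unadjusted p = 0.0142 by edgeR), and -1.42 with the FPKM column and -1.41 without KO I/R 2. Sham kidneys of both genotypes had 54.2 to 99.8 CPM, so Col1a1 in KO I/R 1 was at the sham level.

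Col5a1, a chain of the collagen V that starts collagen fibrils, was at 74.0, 105 and 69.5 CPM in WT I/R and 29.2, 44.3 and 38.6 in KO I/R. Its log2 difference was -1.15 (SE 0.32), -1.29 without KO I/R 2 and -1.32 with the FPKM column. Col6a2, of the collagen VI microfibrils, was at 72.2, 94.0 and 61.0 CPM in WT I/R and 28.5, 53.6 and 32.5 in KO I/R, a difference of -0.99 (SE 0.32). Col14a1, a fibril-associated collagen, was at 23.1, 27.8 and 20.9 against 5.55, 8.42 and 8.68 CPM, a difference of -1.66 (SE 0.43). All of these were apart in either version of KO I/R 2.

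Pdgfrb, the receptor that marks pericytes and fibroblasts, was at 168, 205 and 146 CPM in WT I/R and 120.1, 123 and 89.6 in KO I/R, a difference of -0.64 (SE 0.25). From the FPKM column KO I/R 2 was at 140.3, near the lowest WT I/R library. Elastin, Eln, differed by -1.12 (SE 0.29) and by -0.84 with the FPKM column and -1.06 without KO I/R 2, from 113 to 184 CPM in WT I/R and 57.3 to 70.5 in KO I/R. Mfap2, an elastic microfibril protein, differed by -1.51 and Lmod1, an actin nucleator of smooth muscle, by -1.13, and both groups overlapped once KO I/R 2 was taken from its FPKM column. Nid2, a basement membrane nidogen, Mxra8, a matrix-associated membrane protein, and Angptl2, a secreted angiopoietin-like protein, differed by -0.95, -1.29 and -0.73 and stayed apart in that version. Other members of the list were less clear. Tnc, the tenascin of healing tissue, was lower in all KO I/R libraries with a difference of -0.61 (SE 0.46), Postn differed by -0.86 (SE 0.58) and Tgfb2 by -1.34 (SE 0.61) with overlapping groups, and Timp3, an inhibitor of metalloproteases, differed by 0.05 (SE 0.32).

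**Figure D2:**
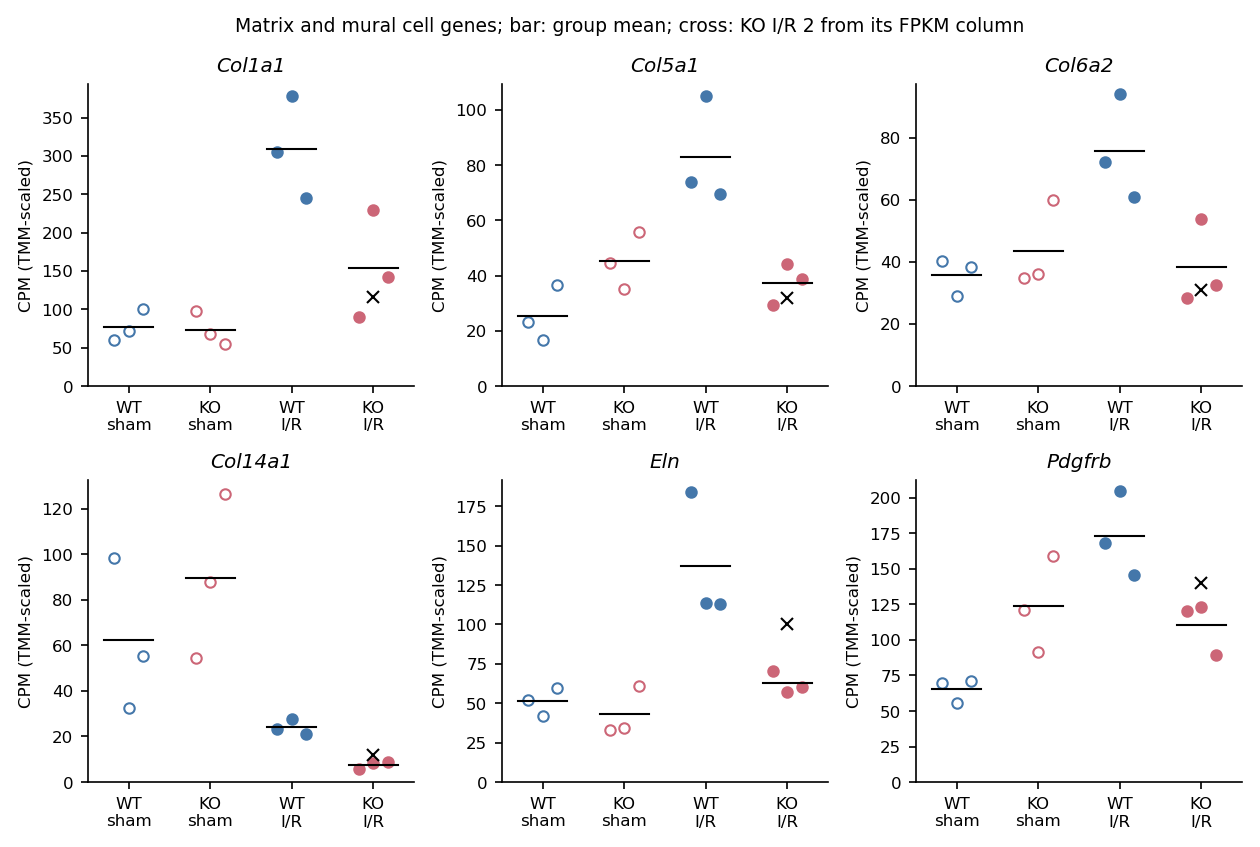
TMM-scaled CPM (linear axis from 0) of Col1a1, Col5a1, Col6a2, Col14a1, Eln and Pdgfrb in the 12 libraries, by group, with bars at group means and a cross for KO I/R 2 as read from its FPKM column. KO I/R lies below WT I/R for all 6 genes in either version, while in sham kidneys KO is not the lower group for Col5a1, Col6a2, Col14a1 or Pdgfrb.

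Other genes that were lower in all KO I/R libraries include a cell cycle gene and immune signalling genes. Cdc20, the activator of the anaphase-promoting complex, was at 14.4, 15.5 and 12.2 CPM in WT I/R and 4.26, 7.22 and 3.88 in KO I/R, a log2 difference of -1.46 (SE 0.40) and of -1.55 with the FPKM column. Of the 17 tested members of the cell cycle and mitosis list, 1 was lower at an unadjusted p under 0.05, which was Cdc20 itself, and 0 higher. Of all tested genes 1.41% were lower and 1.37% higher at that threshold. In the list 13 had a negative difference, beside 2199 of all 5048 tested genes. The median was -0.30, -0.33 without KO I/R 2 and -0.28 with the FPKM column. Ccnd1, cyclin D1 of the G1 phase, differed by -0.50 (SE 0.33). Tgtp1, an interferon-induced GTPase, and Traf1, an adaptor of TNF receptors, differed by -1.11 (SE 0.37) and -1.50 (SE 0.51) and stayed apart with the FPKM column. Pla2g4b, a cytosolic phospholipase A2, differed by -1.60 (SE 0.49), and D3Ertd751e by -1.86 but by -0.62 with the FPKM column.

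No tubular injury gene had an unadjusted p under 0.05 in the fit of all groups, though the groups of Sox9 and Havcr1 did not overlap with the deposited counts. Havcr1, which encodes the injury receptor KIM-1, was at 3091, 5338 and 4599 CPM in WT I/R and 6293, 8181 and 6843 in KO I/R. All KO I/R libraries were above with the deposited counts, but the FPKM column put KO I/R 2 at 5369 CPM, level with WT I/R 2, and the groups were not apart in that version. The log2 difference was 0.71 with an SE of 1.21, and its 95% interval ran from -1.93 to 3.35. That fit takes its spread from all 4 groups, and KO sham 1 held 230 CPM of Havcr1 against 1.07 to 21.8 in the other shams. In the 6 I/R libraries alone the unadjusted p of Havcr1 by edgeR was 0.0475. With the FPKM column the difference in those 6 was 0.50 (SE 0.23). Lcn2, which encodes NGAL, was at 7898, 6589 and 6119 CPM in WT I/R and 10222, 20484 and 5007 in KO I/R, with KO I/R 3 below all WT I/R libraries. Its 0.79 (SE 0.82) became 0.20 with the FPKM column. Sox9, a factor of regenerating tubule cells, was at 66.7 to 77.3 CPM in WT I/R and 83.0 to 116 in KO I/R, a difference of 0.39 (SE 0.36), and its groups were apart in every version of KO I/R 2. Clu differed by -0.18 and S100a6 by -0.33, or by -1.01 for S100a6 with the FPKM column. Of the 9 tested genes of the list 2 (22.2%) were higher in every KO I/R library, beside 4.54% of all tested genes, and the median was 0.11, or 0.01 with the FPKM column.

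Along the nephron, proximal tubule genes had a positive median and those of the later segments a negative one. The proximal tubule list has 14 tested members with a median of 0.44, which was 0.47 without KO I/R 2 and 0.40 with the FPKM column. In every KO I/R library 4 were higher and 2 lower, beside 4.54% and 4.89% of all tested genes. At an unadjusted p under 0.05, 1 was higher (Napsa) and 2 lower, beside 1.37% and 1.41%. Those 2 were Slc34a3, a phosphate cotransporter, and Uroc1, the urocanase of histidine breakdown. Slc34a3 was at 39.6, 33.1 and 36.6 CPM in WT I/R and 16.5, 9.38 and 13.3 in KO I/R, but at 35.3 in KO I/R 2 by its FPKM column, within the WT I/R range. Uroc1 differed by -0.67 (SE 0.25) in either version. Slc22a12, the urate transporter URAT1, differed by 1.08 (SE 0.51) and Slc5a2, the glucose cotransporter SGLT2, by -0.57 (SE 0.40). Beyond the proximal tubule, all 7 tested genes of the list for Henle's loop and the distal tubule had a negative difference, beside 2199 of all 5048 tested genes. The median was -0.37, -0.29 without KO I/R 2 and -0.33 with the FPKM column, and 0 had an unadjusted p under 0.05. Examples are Umod at -0.22 (SE 0.28) and Bsnd, a chloride channel subunit, at -0.46 (SE 0.36).

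In the collecting duct list the median was -0.23, and 3 of 12 were lower in every KO I/R library, beside 4.89% of all tested genes. At an unadjusted p under 0.05, 2 were lower, beside 1.41% of all tested genes, and 0 higher. Both belong to intercalated cells. Atp6v1b1, a subunit of their proton pump, was at 105, 75.3 and 86.9 CPM in WT I/R and 46.3, 50.3 and 71.8 in KO I/R, a difference of -0.67 (SE 0.23). Insrr, an alkali-sensing receptor, was at 48.5, 31.4 and 41.1 against 14.3, 20.0 and 19.8 CPM, a difference of -1.17 (SE 0.45). Both stayed apart with the FPKM column. Aqp2, the vasopressin-regulated water channel of principal cells, differed by -0.33 (SE 0.50). Among 5 podocyte genes the median was -0.29 with 0 at an unadjusted p under 0.05, and Cdkn1c differed by -0.29 (SE 0.26). Of 4 endothelial genes, Tie1, a receptor of vessel stability, was lower in all KO I/R libraries with a difference of -0.56 (SE 0.24), -0.70 without KO I/R 2 and -0.75 with the FPKM column, and the median was -0.24.

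Genes of fatty acid oxidation and PPAR alpha had a positive difference in 12 of 14 tested members, beside 2844 of all 5048 tested genes. At an unadjusted p under 0.05, 1 was higher (Acaa1b), beside 1.37% of all tested genes. In every KO I/R library 5 were higher, beside 4.54%. The median was 0.40, 0.23 without KO I/R 2 and 0.21 with the FPKM column. Pex11a, a peroxisome division protein, differed by 0.43 (SE 0.22) and Pdk4, the kinase that spares glucose by closing pyruvate dehydrogenase, by 1.01 (SE 0.94). The same list had a median of -0.62 in KO sham against WT sham, and of -0.50 without KO sham 1 and KO sham 3.

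**Figure D3:**
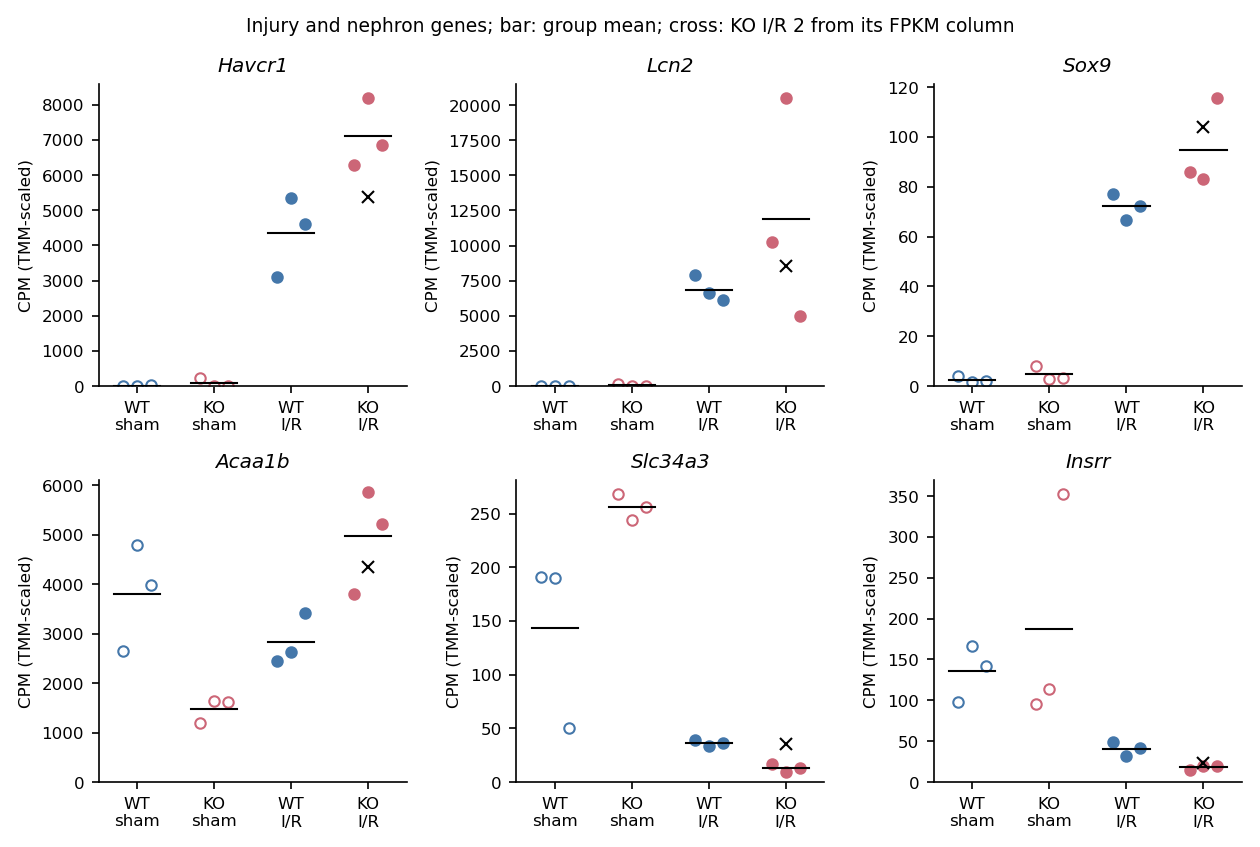
TMM-scaled CPM (linear axis from 0) of Havcr1, Lcn2, Sox9, Acaa1b, Slc34a3 and Insrr in the 12 libraries, by group, with bars at group means and a cross for KO I/R 2 as read from its FPKM column. Havcr1 and Lcn2 overlap or nearly touch between the I/R groups, while Acaa1b is higher in KO I/R than in WT I/R and lower in KO sham than in WT sham.

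Immunoglobulin genes had few counts in WT I/R and more in KO I/R. Igkc, the constant region of the kappa light chain, had 9, 13 and 7 counts in WT I/R and 68, 255 and 77 in KO I/R, a log2 difference of 4.05 (SE 1.47) and of 4.17 with the FPKM column. Without KO I/R 2, which held the 255, the difference was 2.93 (unadjusted p = 0.082 by edgeR). All 74 immunoglobulin genes of the table together, a group looked at after the values were seen, had 15, 27 and 11 counts in WT I/R and 87, 283 and 93 in KO I/R. Without Igkc the sums were 6, 14 and 4 against 19, 28 and 16. Sham kidneys had 12 to 1002 counts in WT and 1927 to 5064 in KO, and WT sham 1 alone held the 1002. The genotype difference of Igkc after sham was 3.59, and its interaction was 0.46 (unadjusted p = 0.801 by edgeR), so the difference was not shown to be particular to I/R. The other tested lymphocyte genes had negative differences: Cd4 was at 1.22 to 1.83 CPM in WT I/R and 0.48 to 0.74 in KO I/R. In the list 4 of the 5 tested members had a negative difference, beside 2199 of all 5048 tested genes.

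Myeloid and inflammatory lists had negative medians without KO I/R 2, and the value of that library depended on the column. The 11 tested monocyte and macrophage genes had a median of -0.05 with the deposited counts, -0.58 without KO I/R 2 and -0.63 with the FPKM column. Adgre1, the macrophage antigen F4/80, was at 9.30, 10.4 and 7.67 CPM in WT I/R and 2.59, 10.1 and 4.25 in KO I/R, with 3.07 by the FPKM column. C1qa differed by 0.35 with the deposited counts and by -0.63 with the FPKM column. Of the 11 genes 0 had an unadjusted p under 0.05 in the fit with the deposited counts. Adgre1 differed by -1.41 without KO I/R 2 and by -1.46 with the FPKM column, with edgeR's unadjusted p at 0.0107 and 0.00254. Lower in every KO I/R library used were 1 of the 11 with the deposited counts, 6 without KO I/R 2 and 5 with the FPKM column. Over all 5048 tested genes these counts were 247, 858 and 419. The 6 neutrophil genes had medians of -0.17, -0.53 and -0.57 in the same order, with Csf3r, the G-CSF receptor, at -0.21 (SE 0.60). Of 9 cytokine, chemokine and adhesion genes 7 had a negative difference, beside 2199 of all 5048 tested genes. Csf1, the macrophage growth factor, was lower in all KO I/R libraries with a difference of -0.56 (SE 0.27), or -0.70 in both other versions. Interferon response genes had medians of 0.07, -0.50 and -0.37. Among them Stat2 was higher at an unadjusted p under 0.05 by 0.91 (SE 0.38), but by 0.12 with the FPKM column, and Irf8 differed by -0.54 (SE 0.43).

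The direction of 7 of the 36 lists with tested genes depended on which version of KO I/R 2 was used. The clearest was that of cytosolic ribosomal proteins, where all 19 tested genes had a positive difference with the deposited counts, beside 2844 of all 5048 tested genes. The median was 0.37, against -0.30 without KO I/R 2 and -0.16 with the FPKM column. Rplp0, a stalk protein of the large subunit, was at 4514 to 5344 CPM in WT I/R, at 4259 and 3612 in KO I/R 1 and 3, and at 11275 in KO I/R 2 by its counts but 5491 by its FPKM column. Nuclear genes of oxidative phosphorylation had medians of 0.26, -0.21 and -0.10 in the same order, the circadian clock list -0.28, 0.05 and 0.01, and immediate early genes -0.25, 0.00 and 0.05. Mitochondrially encoded genes had 0.08, -0.19 and 0.03, and cell death genes -0.04, 0.00 and 0.01. Gpx3, the secreted glutathione peroxidase made by the proximal tubule, was at 86284 to 92770.1 CPM in WT I/R, 74996 in KO I/R 1, 19336 in KO I/R 2 by its counts but 107604 by its FPKM column, and 22230.1 in KO I/R 3.

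Lists whose median was smaller include heat shock and chaperones (median -0.04), lysosome and autophagy (0.05), p53 targets (0.01) and glycolysis and hypoxia (0.23). Of the 7 tested heat shock genes 1 was lower at an unadjusted p under 0.05, beside 1.41% of all tested genes. It was Hspa1a, at -1.60 (SE 0.56) with overlapping groups. The FPKM column moved KO I/R 2 from 158 to 943 CPM and the difference to -0.33. Hspa1b went from -1.39 (SE 0.66) to -0.35. The size of several medians depended on KO I/R 2. In the order deposited counts, without KO I/R 2 and FPKM column, the NRF2 and redox list had medians of 0.25, 0.01 and 0.03. The unfolded protein and integrated stress response list had 0.08, 0.29 and 0.25 in that order, and gluconeogenesis and amino acid metabolism 0.11, 0.22 and 0.19. Cholesterol and steroid synthesis had -0.07, -0.09 and -0.18, and antigen presentation -0.31, -0.42 and -0.28. Sex-biased kidney genes had medians of 0.52, 0.51 and 0.40, with 0 of 10 at an unadjusted p under 0.05. Markers of tissue around the kidney were few. Of 13 adipocyte markers 2 are tested, and Plin1, the lipid droplet protein, was at 0.17 to 1.28 CPM in WT I/R and 2.59 to 9.38 in KO I/R, with 1.76 for KO I/R 2 by its FPKM column. The 5 red blood cell genes had a median of 0.82 and of 0.25 with the FPKM column, 1 adrenal gene was tested (0.35), the 8 squamous and keratin genes had -0.03, and of 15 skeletal muscle markers 0 were tested. The part of such tissue in the results was not tested.

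**Figure D4:**
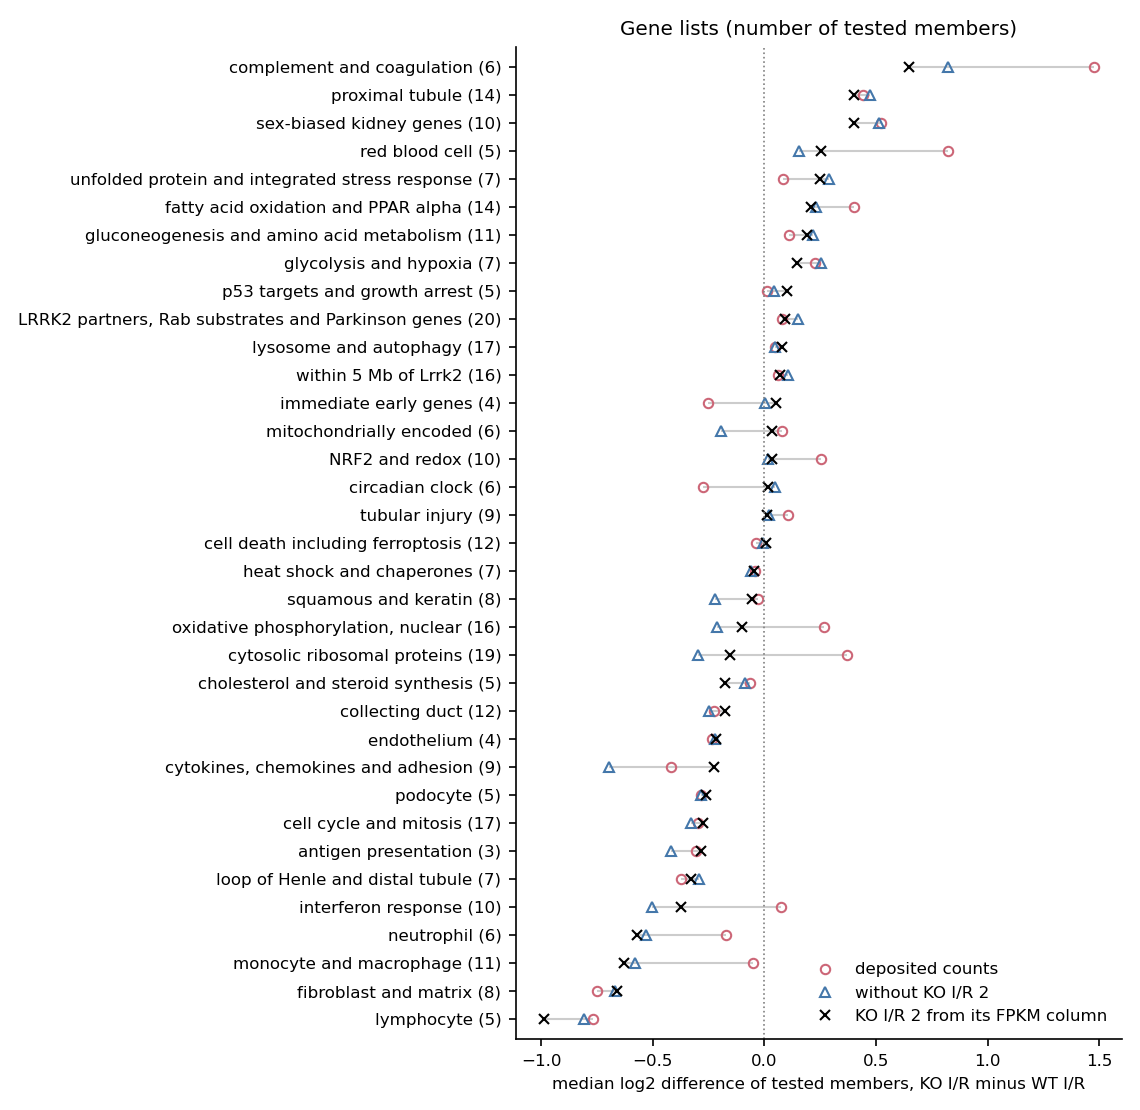
Median log2 difference, KO I/R minus WT I/R, over the tested members of each list with at least 3 of them, for the deposited counts (circles), without KO I/R 2 (triangles) and with KO I/R 2 from its FPKM column (crosses). The fibroblast and matrix list lies between -0.75 and -0.66 in the 3 versions, whereas the cytosolic ribosomal proteins go from 0.37 to -0.30.

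Genes that act with LRRK2 showed small differences. The list of its partners, its Rab substrates and other Parkinson genes has 20 tested members, of which 0 had an unadjusted p under 0.05 in either direction, with a median of 0.08, and 0.15 without KO I/R 2. Rab8b, a substrate in ciliary and exocytic traffic, was at 40.2 to 45.2 CPM in WT I/R and 24.7 to 34.1 in KO I/R, a difference of -0.49 (SE 0.25) with the groups apart. Rab10, a main substrate, differed by 0.17 with a 95% interval of -0.38 to 0.72, and Rab29, which recruits LRRK2 to membranes, by -0.23 with an interval of -0.88 to 0.41. Pink1, a mitochondrial kinase of familial Parkinson disease, was higher in all KO I/R libraries by 0.47 (SE 0.25), or 0.29 without KO I/R 2 and 0.30 with the FPKM column, and Tubb4b, a beta tubulin, differed by 0.48 (SE 0.25). Around Lrrk2 itself, 16 genes within 5 Mb on chromosome 15 were tested, with a median of 0.06. Of these, 1 was higher at an unadjusted p under 0.05, the Creld2 named above, beside 1.37% of all tested genes. Shank3, a scaffold protein, differed by 0.88 (SE 0.43) and Hdac10, a polyamine deacetylase, by -0.22 (SE 0.31).

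A few of the 16383 genes of the table, all of very low count, were at 0 in all I/R libraries of one genotype and had at least 3 counts in each of the other. With KO I/R at 3 to 10 counts and WT I/R at 0 these were Gm5833, Igkv1-110, Gm15475, Gm47391 and Gm15624, and with WT I/R at 3 to 7 counts and KO I/R at 0 they were Gm34655, Optc and Gm5544. By its FPKM column KO I/R 2 had 0 reads for Gm5833, Gm15475 and Gm15624, so these rest on its counts. That column gave it 1 read for Gm47391, below the 3 required. It also gave 1 read for Gm34655, which was then not at 0 in all KO I/R libraries. Igkv1-110, a kappa variable segment, had 4, 3 and 3 counts in KO I/R and 120, 36 and 34 in KO sham.

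The genotype difference after I/R was also set against that after sham, which shares no library with it. Across the 5048 genes the log2 differences had a Pearson r of 0.01, across genes that are not independent, and 48.4% had the same sign. KO sham against WT sham called 0 genes (0%) with 285 at an unadjusted p under 0.05, and the interaction, which tests whether the genotype difference itself differs, called 0 genes (0%) with 265 at an unadjusted p under 0.05 by edgeR's quasi-likelihood test. DESeq2's interaction called 16 genes, and edgeR without the filter on low counts called 3. Acaa1b had the smallest unadjusted p of the interaction among the genes above, at 2646 to 4786 CPM in WT sham and 1199 to 1641 in KO sham, with differences of -1.35 after sham and 0.81 after I/R. Its interaction was 2.17 (unadjusted p = 0.00025 by edgeR, adjusted p by DESeq2 = 0.000214). Vnn1, a pantetheinase and PPAR alpha target, had -1.38 after sham and 0.41 after I/R, with DESeq2's adjusted p at 0.0198.

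The fibroblast and matrix list had a median of 0.64 after sham and -0.75 after I/R. Its members were not alike, and Col1a1 had the same sign in both, with -0.08 after sham, as did Eln with -0.26. Col5a1 was at 16.6 to 36.4 CPM in WT sham and 35.0 to 55.8 in KO sham, and its interaction was -1.97 (unadjusted p = 0.000931 by edgeR, adjusted p by DESeq2 = 0.0320). Pdgfrb had 0.92 after sham and -0.64 after I/R, with an interaction of -1.56 and DESeq2's adjusted p at 0.0382. Slc34a3 and Tgtp1 had interactions of -2.31 and -2.11 with DESeq2's adjusted p at 0.0482 and 0.0489. The interactions given here use the deposited counts of KO I/R 2. With its FPKM column the difference after I/R went from -1.47 to -0.76 for Slc34a3, so its interaction depends on that column. For Tgtp1 it went from -1.11 to -1.05. For Fgb and Fgg the interactions were 1.41 and 2.11, with edgeR's unadjusted p at 0.274 and 0.0938, so their difference was not shown to differ between I/R and sham. These sham values rest on libraries that stand apart. KO sham 1 held 230 CPM of Havcr1, 1.07 to 21.8 being the range of the other sham libraries, and KO sham 3 had 24.7% of its counts on mitochondrially encoded genes, against 8.06% to 10.7% in the other shams. A fit without both leaves KO sham 2 alone in its group, and that library is then assumed to vary like the other groups. The interaction of Acaa1b was 2.02 in that fit, that of Col5a1 -1.62 and that of Pdgfrb -1.14. Those of Fgb and Fgg were 3.87 and 2.99, and that of Igkc was 1.66. For KO sham they rest on KO sham 2 alone, which held 1.35 CPM of Fgb. Its Lrrk2, at 319 CPM, was within the WT sham range of 257 to 433. The omitted KO sham 1 and KO sham 3 had 96.5 and 55.5 CPM of Lrrk2. The sham median of the fibroblast and matrix list was 0.46 in that fit.

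**Figure D5:**
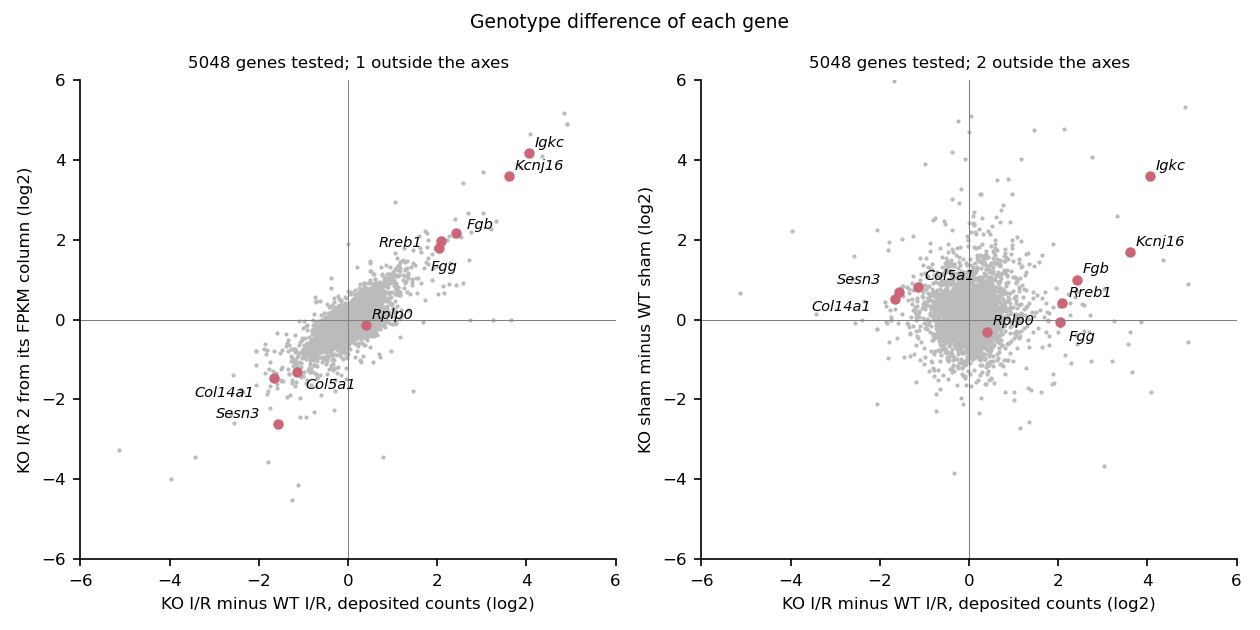
Log2 difference of each tested gene, KO I/R minus WT I/R from the deposited counts, against the same difference with KO I/R 2 from its FPKM column (left) and against KO sham minus WT sham (right), with named genes in red. Fgb is at 2.42 and 2.16 on the left, while Rplp0 goes from 0.39 to -0.13, and on the right the r across genes is 0.01.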

How the data were processed

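Per the labels' protocols, total RNA came from RNeasy columns and TruSeq RNA kits gave paired-end libraries. The authors deposited 1 table with whole-number read counts and FPKM values per gene, per the file headers, and HISAT2 and StringTie are named in the submitters' processing notes, without versions. Neither the build nor how reads were counted, or whether strand was used, is stated in the sources used here, so antisense and overlapping genes, pseudogenes and gene families may share reads. Of the tested genes, 98.7% have the locus of GENCODE M21 (GRCm38).

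The deposited counts were tested with edgeR 4.0.16 (quasi-likelihood, TMM, filterByExpr by group, 1 model of the 4 groups with 3 libraries each) in R 4.3.3, with Benjamini-Hochberg adjustment over the 5048 genes tested. DESeq2 1.42.0 and limma 3.58.1, on counts and on log2(FPKM + 1) and log2(FPKM + 0.1), were alternatives. The scripts were tested on simulated data. Reads of KO I/R 2 were worked back from its deposited FPKM, times the counts per unit of FPKM of the same gene in the other 11 libraries, scaled to its total count. Library totals are those of the table, not of the sequencing.

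Genes named were Lrrk2, Havcr1 and Lcn2, and the 2 of smallest p in each list. Genes within 5 Mb of Lrrk2 and genes at 0 in one group were named too. Up to 15 in each direction were those with separate groups, at least 5 CPM in a group, 1.5-fold or more and the smallest p. Those 15 also had to keep their sign without KO I/R 2 and with its FPKM column. Other names were added to describe a list after their values were seen. The comparison, the genes and the 37 lists were chosen with earlier results of these data known, so they are no independent evidence.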

Additional observations from a re-analysis of the deposited data

How the results depend on the processing

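Between the genotypes after I/R, the count of genes called was 0 under RLE and upper-quartile scaling, no and stricter filters, robust fitting, limma and the replicate block, 0 with KO I/R 2 from its FPKM column in the fit of all groups, and 0 without KO sham 1 and KO sham 3. It was 2 with DESeq2, 3 with the 6 I/R libraries and the FPKM column, and 4 with 5 I/R libraries; leaving out 1 library gave 0 to 1, the 1 being the pseudogene Rps2-ps10 without WT I/R 1. The interaction count was 16 with DESeq2, 3 with no filter, and 0 to 1 on leaving out 1 library. Genes with separate groups, 229 higher and 247 lower, became 923 and 858 without KO I/R 2, where fewer libraries come apart more easily, and 406 and 419 with the FPKM column. The mean r within KO I/R was 0.941, and 0.972 and 0.970 in those versions.

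Signs turned for few named genes. The genes of smallest p in each direction were named only if their sign held without KO I/R 2 and with its FPKM column. Their signs in those versions were therefore fixed by the rule and do not show stability. Leaving out 1 library at a time gave -0.093 to 0.66 for Lrrk2 (lowest without KO I/R 3), -0.30 to 0.34 for Timp3 (lowest without KO I/R 3), -1.07 to 0.028 for S100a6 (highest without WT I/R 2), -0.39 to 0.15 for Clu (highest without WT I/R 1), -0.45 to 0.10 for F3, -0.71 to 0.70 for C1qa and -0.30 to 0.67 for Rplp0. In the order FPKM column, without KO I/R 2, 6 libraries with the FPKM column, 5 libraries, and voom with sample weights, F3 was 0.0081, 0.099, 0.0091, 0.10 and 0.062, C1qa -0.63, -0.71, -0.63, -0.71 and -0.55, and Rplp0 -0.13, -0.30, -0.13, -0.30 and -0.18. On log2(FPKM + 1) and log2(FPKM + 0.1), C1qa was -0.63 and -0.65, and Rplp0 -0.18 and -0.18. The cause was not tested. With the replicate number as a block, 0 genes were called. The numbers do not pair the samples, since deviations of same-numbered WT I/R and KO I/R libraries from their group means correlated at 0.066, 0.20 and 0.19. No scaling moved the median of all genes by over 0.1. With 3 libraries a group, the 95% interval reached 0.83 to either side at the median gene.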
